A study of Homo sapiens with 22 samples.

Results

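Drug-susceptible WM989 melanoma cells were compared between wells that also held many primed cells and wells that held few. The first single-cell experiment holds 12531 cells in 8 wells, and the authors' cluster labels call each cell primed or not. The wells were chosen by the measured share of primed cells. A well was taken as primed-rich where over 50% of its cells were labelled primed and as primed-poor where under 15% were, which gave 4 wells of each kind and left none over. The members are the 9688 cells not labelled primed, 1050 of them in primed-rich and 8638 in primed-poor wells. Since the primed share chose the wells and the cluster labels were made from these same counts, the shares are given as a description only.

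WM989 is a BRAF V600E melanoma line, grown here from an isolate derived from single cells, and no drug was given in either group. All cells had been exposed to a lentiviral library that marks a lineage by a transcribed barcode, and wells were started either from cells high in EGFR and NGFR or from an unselected mix, then grown for several divisions. The cell labels do not say which sort each well came from. They give a replicate, r1 (wells 1 to 4) or r2 (wells 5 to 8). According to the methods, a culture well of each sort was split over 2 chip wells, so that the 2 wells of a group within a replicate, called a culture here, are probably 1 culture loaded again. Whether r1 and r2 were separate sorts is not given in the sources used here.

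In BRAF-mutant melanoma the drug-susceptible state is held by the melanocyte transcription factors SOX10 and MITF and their pigment targets, and most of these cells die under BRAF and MEK inhibition. The primed state is a rare, temporarily heritable state with receptor kinases such as EGFR and AXL, extracellular matrix, inflammatory and interferon-stimulated genes, and low SOX10. The comparison asks whether cells called drug-susceptible carry the same RNA in wells with many and with few primed cells. The sort that started a well, and with it the ancestry of its cells, and the primed neighbours cannot be told apart in this design.

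In r1 the primed share was 56.9% in well 1 and 62.4% in well 2, against 7.87% in well 3 and 6.85% in well 4. In r2 it was 79.7% in well 5 and 76.9% in well 6, against 9.17% in well 7 and 9.42% in well 8. Wells 1 and 8 thus lay nearest to the thresholds. Drug-susceptible cells numbered 194, 639, 83 and 134 in wells 1, 2, 5 and 6 and between 1475 and 3578 in the primed-poor wells, which gave 10299439 to 167862961 UMIs (unique molecular identifiers, counted RNA molecules) per well. Their median depth was 72693 to 134402 UMIs a cell in primed-rich and 46092.5 to 78291 in primed-poor wells. The groups were apart in r2 and overlapped in r1, where primed-rich well 2 was shallower than primed-poor well 3. The median share of mitochondrial UMIs was 11.1% to 14.8% in primed-rich and 11.6% to 15.9% in primed-poor wells. The part that depth plays in the differences below was not tested.

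**Figure D1:**
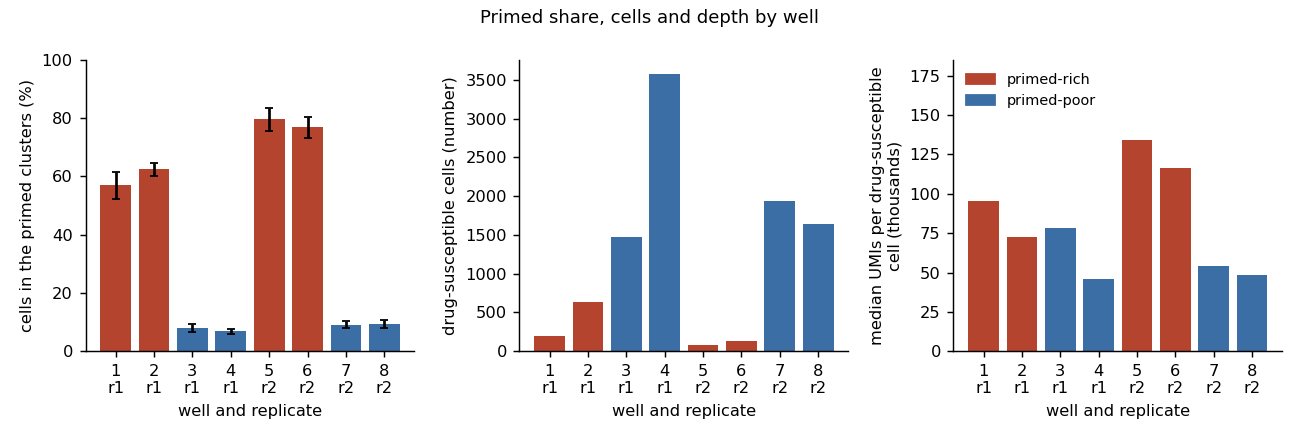
Percent of cells labelled primed with exact 95% binomial intervals, number of drug-susceptible cells and their median UMIs (axis in units of 1e3 UMIs) in each of the 8 wells, with primed-rich wells in red and primed-poor wells in blue. The primed share ran from 56.9% to 79.7% in the primed-rich and from 6.85% to 9.42% in the primed-poor wells, and the primed-rich wells held 83 to 639 drug-susceptible cells.

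SOX10 and MITF differ between the authors' clusters, so their presence in cells not labelled primed follows from the choice of cells and is given as a description. SOX10, the neural crest factor that maintains melanocyte identity, stood at 137, 142, 129 and 130 CPM (UMIs of a gene per 1e6 UMIs, scaled for composition) in wells 1, 2, 5 and 6 and at 142, 140, 124 and 127 CPM in wells 3, 4, 7 and 8. The groups overlapped, with a log2 fold change, primed-rich over primed-poor, of 0.01 ± 0.05 (SE; edgeR quasi-likelihood test on 4 with 4 wells, adjusted p = 0.922). In primed cells of the primed-rich wells, for comparison, SOX10 was at 7.91 CPM in r1 and 3.26 CPM in r2. MITF, the master regulator of the pigment genes, was at 308, 282, 267 and 288 CPM against 325, 339, 331 and 335 CPM, lower in all 4 primed-rich wells, by a log2 fold change of -0.22 ± 0.05 (adjusted p = 0.0145 by well, 0.299 by culture). NGFR, used in the sort, did not pass the test (-0.12 ± 0.29, adjusted p = 0.834).

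Even so, the drug-susceptible cells of the primed-rich wells differed from those of the primed-poor wells in many genes. Of 16230 genes tested by well, with replicate as a block and Benjamini-Hochberg adjustment at 0.05, 1217 (7.5%) were higher and 1243 (7.66%) lower in primed-rich wells. With the chip wells of a culture summed, so that 2 cultures stand against 2, 216 (1.24%) of 17351 genes were higher and 121 (0.697%) lower. Of the 2460 calls by well, 323 were also called by culture. For 3969 genes (24.5% of those tested) the 2 groups of wells were apart in the same direction within r1 and within r2. Without well 4, the primed-poor well with most cells, 806 genes were lower by well. Wells of the same culture differed with an SD of the log2 ratio of 0.0568 to 0.141 over 7926 genes, wells of the 2 groups within a replicate with 0.231 to 0.271, and wells of r1 and r2 with 0.440 to 0.543. The fit by well has 5 residual degrees of freedom, beside 9.19 prior degrees of freedom borrowed across genes. What a gene's own counts add to its p-value by well is mostly the spread between loadings of a culture. The values by culture are therefore given beside the values by well. The fit by culture has 1 residual degree of freedom, beside 11.1 prior degrees of freedom borrowed across genes. Its p-values thus rest mostly on a spread shared among genes and little on repeated cultures.

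Among genes with at least 10 CPM on average, the largest rises included genes of secreted and matrix proteins. FN1 encodes fibronectin, a matrix glycoprotein (chromosome 2, 215360440 to 215436073, minus strand, hg38). It was at 243 and 227 CPM in the primed-rich wells of r1 against 46.1 and 47.6 CPM in the primed-poor ones, and at 441 and 343 CPM against 95.7 and 90.9 CPM in r2. All 4 primed-rich wells lay above all 4 primed-poor wells, a 4.59-fold difference (log2 fold change 2.20 ± 0.08 SE, edgeR adjusted p = 9.01e-09 by well and 7.19e-07 by culture). IGFBP7, a secreted IGF-binding protein (chromosome 4, 57030773 to 57110385, minus strand), was at 87.3, 88.6, 86.6 and 94.6 CPM in the primed-rich wells 1, 2, 5 and 6 and at 9.42, 7.13, 12.8 and 13.5 CPM in wells 3, 4, 7 and 8. Its wells did not overlap either, with a log2 fold change of 3.10 ± 0.14 (adjusted p = 3.81e-06 by well, 0.00022 by culture). MMP1, a collagenase, was at 55.9, 75.9, 70.2 and 83.9 CPM against 15.1, 16.9, 14.6 and 15.1 CPM in the same order of wells, a log2 fold change of 2.21 ± 0.11 (adjusted p = 1.24e-06 by well, 7.19e-07 by culture).

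NNMT, which methylates nicotinamide (chromosome 11, 114257787 to 114313536, plus strand), had the largest fold change of the genes with at least 10 CPM on average. It was at 49.6 and 73.7 CPM in the primed-rich wells of r1 and at 5.54 and 7.22 CPM in those of r2, against 0.358, 0.74, 0.838 and 0.959 CPM in wells 3, 4, 7 and 8. The rise was present in both replicates and larger in r1, with log2 fold changes of 6.77 in r1 and 2.87 in r2 (interaction of replicate and group, adjusted p = 0.0375, a test that called 8.68% of 16771 genes). NNMT was called by well (adjusted p = 0.0165) and not by culture (0.667). CEBPD, a stress-responsive transcription factor, was likewise called by well only, at 90.1, 113, 44.7 and 31.9 CPM against 18.1, 16.2, 12.6 and 12.8 CPM (log2 fold change 2.12 ± 0.24, adjusted p = 0.00221 by well and 0.195 by culture).

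C1S, a complement protease, was 3.61-fold higher (adjusted p = 1.88e-05 by well, 0.00447 by culture), with 13.4 to 22.1 CPM in primed-rich and 4.33 to 5.51 CPM in primed-poor wells. RUNX1, a hematopoietic and mesenchymal transcription factor, was at 52.8, 60.0, 60.7 and 60.7 CPM in wells 1, 2, 5 and 6 and at 15.4, 14.5, 23.6 and 22.4 CPM in wells 3, 4, 7 and 8. No primed-rich well of RUNX1 came near a primed-poor one (log2 fold change 1.67 ± 0.10, adjusted p = 1.41e-06 by well and 0.000513 by culture). SORBS2, an actin-linked adaptor, rose with a log2 fold change of 1.31 ± 0.10 (adjusted p = 1.47e-05 by well, 0.00181 by culture).

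**Figure D2:**
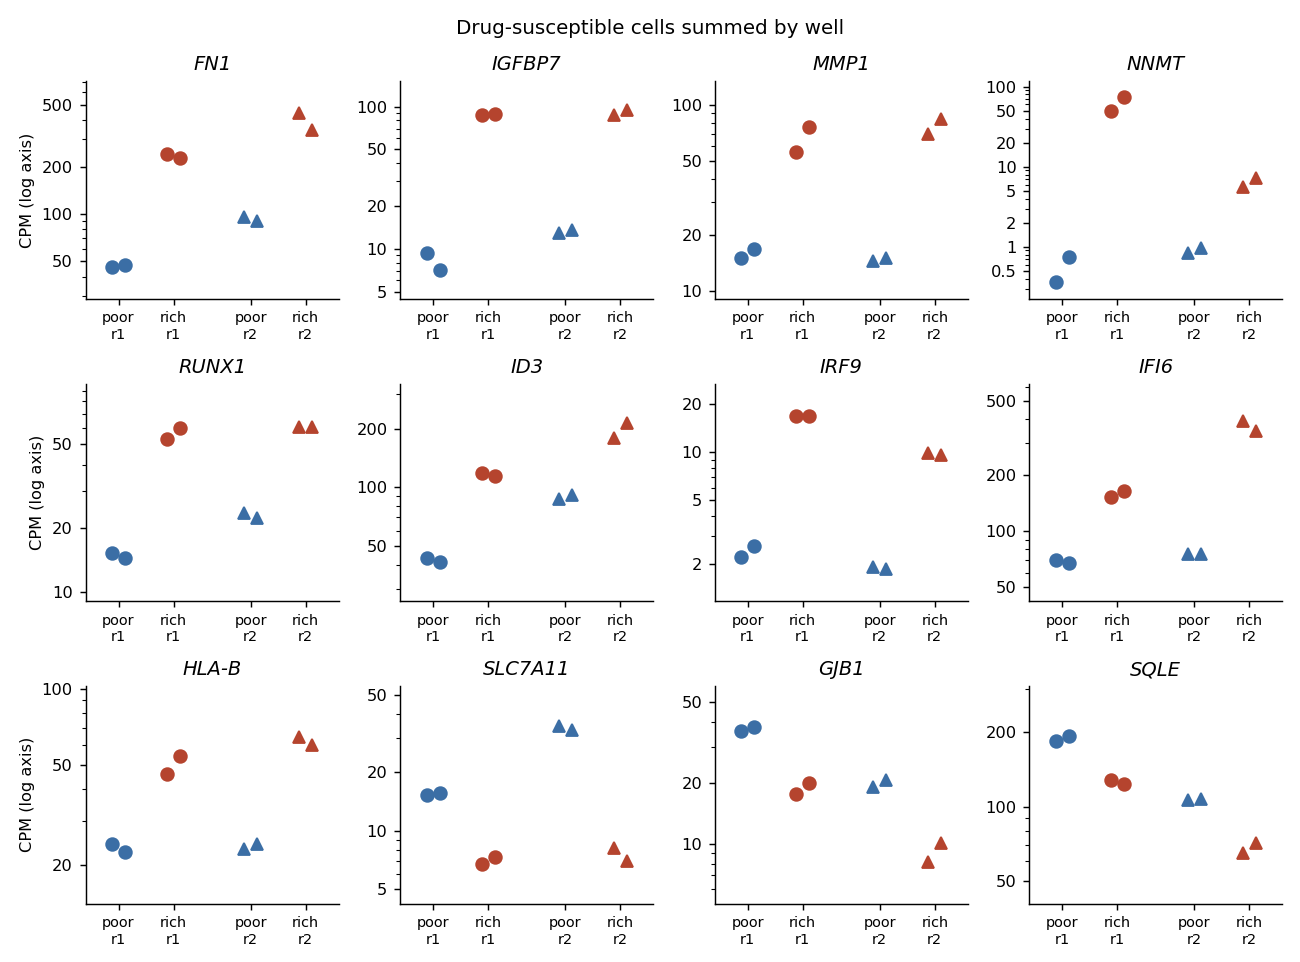
CPM (log axis, a separate range per gene) of 12 genes in drug-susceptible cells summed by well, with circles for r1, triangles for r2, red for primed-rich and blue for primed-poor wells, and each point a well. FN1, IGFBP7, MMP1, NNMT, RUNX1, ID3, IRF9, IFI6 and HLA-B lie higher in both primed-rich wells of each replicate, and SLC7A11, GJB1 and SQLE lower.

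The share of cells with a UMI differed widely between these genes. After each cell was thinned to 20000 UMIs, which left out 173 shallower cells, an FN1 UMI was found in 78.0% of the drug-susceptible cells of primed-rich wells against 40.8% of those of primed-poor wells in r1, and in 98.1% against 61.2% in r2. Unthinned, the shares were 95.2% against 65.4% and 99.5% against 84.7%. IGFBP7 followed with 46.0% against 10.3% in r1 and 70.7% against 15.7% in r2 after thinning, and 68.9% against 19.2% and 97.7% against 28.1% before. NNMT was found in 31.2% against 0.758% of cells in r1 and in 9.30% against 1.38% in r2 after thinning, and in 44.1% against 1.52% and 27.2% against 2.54% before. C1S was found in 28.8% against 7.76% and in 20% against 10.04% after thinning, and in 60.5% against 18.2% and 52.995% against 22.3% before. MMP1 was spread unlike in the 2 replicates, since the 5% of cells with the most MMP1 UMIs held 71.5% of them in the primed-rich wells of r1 and 24.8% in those of r2. In droplet data free RNA can place UMIs in cells that do not make a transcript, and the primed cells that made up most of the primed-rich wells held FN1 at 3025 CPM in r1 and 4833 CPM in r2. No cells here lack these genes by their label, so a background share could not be set beside them, and the part of free RNA was not tested.

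Of the 18 primed-state markers tested, a list that holds EGFR, AXL, NGFR and their usual companions, 13 were higher by well and 0 lower, with a median log2 fold change of 1.08 beside 0.0016 over all genes tested. By culture 12 of these 18 were higher. Over all genes tested 7.5% were higher and 7.66% lower by well, and 1.24% and 0.697% by culture. EGFR was at 6.63, 8.80, 4.20 and 3.98 CPM in wells 1, 2, 5 and 6 against 3.36, 2.97, 2.43 and 2.45 CPM in wells 3, 4, 7 and 8, without overlap (log2 fold change 1.11 ± 0.13, adjusted p = 8.51e-05 by well and 0.0121 by culture). In primed cells of the primed-rich wells EGFR was at 51.1 CPM in r1 and 55.9 CPM in r2. The labels were made from clusters of the same counts, so this gap is a description. AXL was scarce, at 0.286, 0.457, 4.38 and 1.37 CPM against 0.135, 0.130, 0.681 and 0.643 CPM, and its groups overlapped across replicates but not within them (1.89 ± 0.33, adjusted p = 0.00222 by well, 0.00799 by culture). SERPINE2, a secreted protease inhibitor, was 1.63-fold higher (adjusted p = 0.00416 by well, 0.00799 by culture). NT5E, the ecto-nucleotidase CD73, did not pass (-0.08 ± 0.06, adjusted p = 0.381), although the paper takes it as the marker of the whole primed cluster. Its level in primed cells was 7.95 times that in drug-susceptible cells of primed-poor wells, too low for the gene set that follows.

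The level of primed-state RNA in drug-susceptible cells was then set against the primed cells themselves. For 84 genes with at least 20 CPM in primed cells and at least 20 times the level of drug-susceptible cells of primed-poor wells, the drug-susceptible level was taken as a percent of the primed level in the same well. Its median was 2.39% and 3.06% in the primed-rich wells of r1 and 4.52% and 3.91% in those of r2, against 2.17%, 2.10%, 3.04% and 2.60% in wells 3, 4, 7 and 8. The groups did not overlap within a replicate. Since low values in the primed-poor wells helped to choose these genes, that gap is a description, and 61 of them being higher by well and 42 by culture is no independent evidence. The primed level also differed between the groups for some genes, so these percents do not measure the drug-susceptible level alone. After thinning, WNT5A was found in 54.0% and 45.4% of primed cells in wells 1 and 2, against 13.6% and 15.4% in wells 3 and 4. AXL was found in 31.7% and 28.1% against 35.2% and 30.8%. In wells 5 and 6 of r2 WNT5A was found in 69.8% and 65.7% of primed cells, against 26.8% and 26.25% in wells 7 and 8. AXL went the other way than in r1, with 53.8% and 59.1% against 49.5% and 45.6%.

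The excess over the primed-poor wells, as a share of the primed level, is given for each gene as a description. Per gene, the difference between primed-rich and primed-poor wells had a median of 1.29% of the primed level in r1 (quartiles 0.337% and 2.54%) and of 2.31% in r2 (1.64% and 3.22%). It was above 0 for 79 of the 84 genes in r1 and 80 in r2, a count favoured by the choice of genes, since the same primed-poor wells chose them and were subtracted. NNMT stood apart in r1 with 30.7%, and was at 7.87% in r2. FN1 had 6.05% and 6.49%, MMP1 2.90% and 2.93%, and NGFR, a primed gene by the same rule, -0.387% and 0.465%. The values of NGFR rest on 20 UMIs in the primed-rich wells of r1 and 59 in those of r2. How far these shares differ by counting error alone was not tested. BST2, an interferon-induced membrane protein, reached 5.995% in r1 and 12.9% in r2, the latter the highest of the 84 in that replicate. It was called by well (edgeR adjusted p = 0.0363) and not by culture (0.431).

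**Figure D3:**
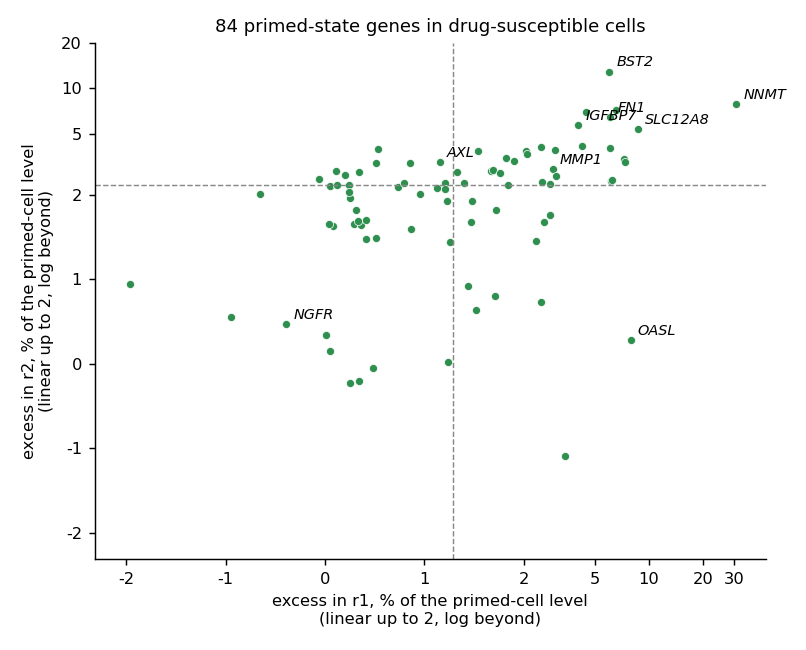
Excess of 84 primed-state genes in drug-susceptible cells of primed-rich over primed-poor wells, as a percent of the level in primed cells of the primed-rich wells, in r1 (x) and r2 (y). Each point is a gene, both axes are linear near 0 and logarithmic beyond, and dashed lines mark the medians of 1.29% and 2.31%. NNMT lies far to the right with 30.7%, and NGFR lies near 0 on both axes.

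For other genes the drug-susceptible cells of primed-rich wells held more transcript than the primed cells beside them. In CPM over all cells of a replicate without scaling for composition, RUNX1 was at 56.1 in r1 and 65.5 in r2, against 18.9 and 36.2 in primed cells of the same wells. CEBPD was at 103 and 40.0 against 47.5 and 11.4, and SORBS2 at 90.1 and 69.1 against 42.8 and 42.4. ID3, a helix-loop-helix inhibitor induced by BMP and TGF-beta signals (chromosome 1, 23557926 to 23559501, minus strand), was at 112 and 214 against 36.4 and 34.0. Of the 1217 genes higher by well, 499 (41.0%) were above the primed level in both replicates, near the 41.8% of all genes tested, and of the 207 called higher by culture among those genes 60 (29.0%) were.

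Calls were also sorted by how a gene differs between states, as the ratio of its CPM in primed cells to that in drug-susceptible cells of primed-poor wells. Of the genes higher by well, 448 (36.8%) had a ratio over 2 and 651 (53.5%) a ratio between 0.5 and 2, against 12.8% and 77.9% of all genes tested. Of those lower, 364 (29.3%) had a ratio under 0.5, against 9.30% of all. By culture the split was wider, with 139 of 207 higher genes (67.2%) over 2 and 78 of 121 lower genes (64.5%) under 0.5. The ratio shares the primed-poor wells with the comparison, so these shares are a description.

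Many interferon-stimulated genes were higher. Interferon signals through the JAK kinases to a complex that holds STAT2 and IRF9 and binds the interferon-stimulated response element (ISRE) in promoters of antiviral genes. Of 26 members tested 18 were higher by well and 1, USP18, a feedback inhibitor of this pathway, was lower (-0.29 ± 0.07, adjusted p = 0.0168 by well and 0.349 by culture, and not called by well without well 1, 2 or 4), with a median log2 fold change of 0.89. By culture 10 were higher. The shares over all genes were 7.5% higher and 7.66% lower by well, and 1.24% higher by culture. IRF9 (chromosome 14, 24161234 to 24168043, plus strand) was at 16.8, 16.9, 9.91 and 9.59 CPM in wells 1, 2, 5 and 6 and at 2.20, 2.60, 1.92 and 1.86 CPM in wells 3, 4, 7 and 8. This was a 6.17-fold difference with no overlap (log2 fold change 2.62 ± 0.10, adjusted p = 4.31e-09 by well and 8.38e-06 by culture).

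STAT2 had a log2 fold change of 0.87 ± 0.10 (adjusted p = 0.000157 by well, 0.01 by culture). IRF7, which amplifies the response, was at 9.71, 10.8, 7.95 and 7.84 CPM against 3.16, 3.22, 2.50 and 2.36 CPM (1.70 ± 0.08, adjusted p = 2.29e-08 by well and 0.000101 by culture). Among the effectors, OAS2, an RNA sensor, rose with 2.09 ± 0.15 (0.000311 by culture) and IFIT1, which binds viral RNA, with 1.10 ± 0.10 (0.000788 by culture). IFI6, an interferon-induced mitochondrial protein, was at 153 and 165 CPM in r1 and at 390 and 347 CPM in r2, against 70.5, 67.5, 75.8 and 75.3 CPM in wells 3, 4, 7 and 8. It was higher in both replicates and more so in r2 (log2 fold changes 1.22 and 2.29, interaction adjusted p = 9.34e-07), and was called by well (0.00395) but not by culture (0.217). MX1, a classical member, did not pass (-0.17 ± 0.16, adjusted p = 0.528).

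The promoters of these genes were read for the ISRE. The letters GAAANNGAA, the core of the element, were searched on both strands in 300 bases around each start site in RefSeq promoters (GRCh38.p14), of which 27305 were given and 8.29% held a match. Among genes tested that had a promoter sequence (11099) it was 6.64%, among those higher by well 10.1% of 883, among those lower 5.49% of 910, and among those higher by culture 13.5% of 141. In the interferon list 14 of 18 promoters held a match, 10 of the 14 of higher genes and 4 of the 4 others. Shown are the 250 bases before the start of 4 genes, 3 with the letters and IRF9 without, written 5′ to 3′ on the gene's strand with matches on either strand in capitals. Overlapping matches run together. They are IFI6 (chr1:27672193-27672442, minus strand, 3 matches), IFIT1 (chr10:89392373-89392622, plus strand, 2 matches), BST2 (chr19:17405631-17405880, minus strand, 2 matches) and IRF9 (chr14:24161015-24161264, plus strand, 0 matches).
IFI6: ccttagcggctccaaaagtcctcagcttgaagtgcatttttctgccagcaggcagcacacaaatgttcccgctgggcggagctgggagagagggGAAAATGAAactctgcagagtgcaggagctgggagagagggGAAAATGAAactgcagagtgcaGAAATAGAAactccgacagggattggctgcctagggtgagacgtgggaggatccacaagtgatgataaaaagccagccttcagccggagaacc
IFIT1: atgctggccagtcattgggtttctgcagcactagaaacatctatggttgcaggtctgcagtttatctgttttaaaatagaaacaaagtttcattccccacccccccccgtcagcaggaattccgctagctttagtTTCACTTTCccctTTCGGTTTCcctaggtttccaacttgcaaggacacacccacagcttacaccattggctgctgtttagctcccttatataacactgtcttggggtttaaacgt
BST2: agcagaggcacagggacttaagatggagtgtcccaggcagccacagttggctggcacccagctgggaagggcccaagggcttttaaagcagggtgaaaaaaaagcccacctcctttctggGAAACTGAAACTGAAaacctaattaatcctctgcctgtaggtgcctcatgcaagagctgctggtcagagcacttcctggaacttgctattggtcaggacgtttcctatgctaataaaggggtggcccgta
IRF9: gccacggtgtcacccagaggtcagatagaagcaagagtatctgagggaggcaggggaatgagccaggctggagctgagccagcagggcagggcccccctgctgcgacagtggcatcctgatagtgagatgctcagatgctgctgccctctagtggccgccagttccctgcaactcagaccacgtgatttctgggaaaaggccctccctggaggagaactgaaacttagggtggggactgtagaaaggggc
A match is a description of these letters and not a binding site measured here. The AP-1 letters TGANTCA, searched in the same way, were in 7.76% of all promoters and 4.73% of those of genes tested, and in 5.66% of those of genes higher and 4.84% of those of genes lower by well.

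MHC class I genes, which present antigen, were also higher. Of 14 MHC class I genes tested 11 were higher by well and 0 lower, beside 7.5% and 7.66% of all genes. Their median log2 fold change was 0.41, and 5 were higher by culture, beside 1.24% of all genes. HLA-B was at 45.9, 53.9, 64.1 and 59.9 CPM against 24.3, 22.5, 23.1 and 24.3 CPM, a 2.36-fold difference without overlap (adjusted p = 1.34e-07 by well, 6.38e-05 by culture). NLRC5, the transactivator of this family, rose with a log2 fold change of 1.16 ± 0.12 (adjusted p = 2.18e-05 by well, 0.00758 by culture) and HLA-C with 0.42 ± 0.06 (0.0362 by culture). Reads of HLA genes can be shared among near-identical copies, so their split is uncertain. PARP9, an interferon-induced ADP-ribosyltransferase, was 1.94-fold higher (adjusted p = 2.33e-06 by well, 0.001 by culture).

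Inflammatory genes were mostly rare transcripts. Of 18 tested 9 were higher and 1 lower by well, beside 7.5% and 7.66% of all genes. By culture 7 were higher, beside 1.24% of all genes. CCL2, a monocyte chemokine, was at 1.83, 2.63, 3.75 and 5.17 CPM in wells 1, 2, 5 and 6 against 0.116, 0.260, 0.506 and 0.304 CPM in wells 3, 4, 7 and 8, an 11.2-fold difference (adjusted p = 5.73e-07 by well, 2.20e-05 by culture). CCL2 is also among the 84 primed-state genes above. Its excess was 1.69% of the primed level in r1 and 2.92% in r2, beside medians of 1.29% and 2.31%. IRF1, an interferon-gamma target, rose with 0.88 ± 0.10 (0.00353 by culture) and ICAM1, an adhesion receptor, with 0.63 ± 0.08 (0.0401 by culture). The lower member was TNFAIP3, an NF-kB inhibitor (-0.67 ± 0.20, adjusted p = 0.0413 by well and 0.314 by culture).

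TGF-beta is, with PI3K, a pathway that the study perturbs to shift cells between states. Of 22 pathway genes and targets tested 14 were higher and 0 lower by well, beside 7.5% and 7.66% of all genes. Their median log2 fold change was 0.39, and 6 were higher by culture, beside 1.24% of all genes. The ligand TGFB1 did not pass (0.14 ± 0.09, adjusted p = 0.316) and went opposite ways in the replicates, and the receptor TGFBR1 was at 0.15 ± 0.06 (adjusted p = 0.0867). Several targets were higher. ID3 was at 118, 115, 178 and 213 CPM in wells 1, 2, 5 and 6 against 43.1, 41.6, 87.6 and 91.4 CPM in wells 3, 4, 7 and 8 (1.29 ± 0.07, adjusted p = 2.04e-07 by well and 6.38e-05 by culture). Both primed-rich wells of each replicate lay above all 4 primed-poor wells. ID3 is also induced by BMP and, as given above, was lower in primed cells than in these cells. ID1 had 1.02 ± 0.07, ID2 0.77 ± 0.06 and PMEPA1, a feedback inhibitor of the pathway, 1.37 ± 0.11 (0.000439, 0.00353 and 0.00147 by culture).

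Of 26 genes of epithelial-mesenchymal transition and matrix, 13 were higher and 0 lower by well, beside 7.5% and 7.66% of all genes. By culture 7 were higher, beside 1.24% of all genes, and the median log2 fold change was 0.38. COL6A2 and COL6A1, chains of collagen VI, had 1.11 ± 0.07 and 0.60 ± 0.06 (0.00022 and 0.00898 by culture), and SNAI2, a neural crest and EMT factor, 0.54 ± 0.05 (0.00799 by culture). Among 11 AP-1 factors 6 were higher and 0 lower by well, and 3 by culture, with a median log2 fold change of 0.48 in r1 and 0.0077 in r2. Without well 2 the higher count was 3, and 4 without well 1, 3 or 4. JUN was 2.75-fold, BATF3 2.27-fold and FOS 1.63-fold higher (0.00181, 0.00063 and 0.00483 by culture), and ATF3, FOSL2, MAFF and MAFK had values below 0 that did not pass. JUN is also among the 84 primed-state genes, with an excess of 6.06% of the primed level in r1 and 4.07% in r2.

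**Figure D4:**
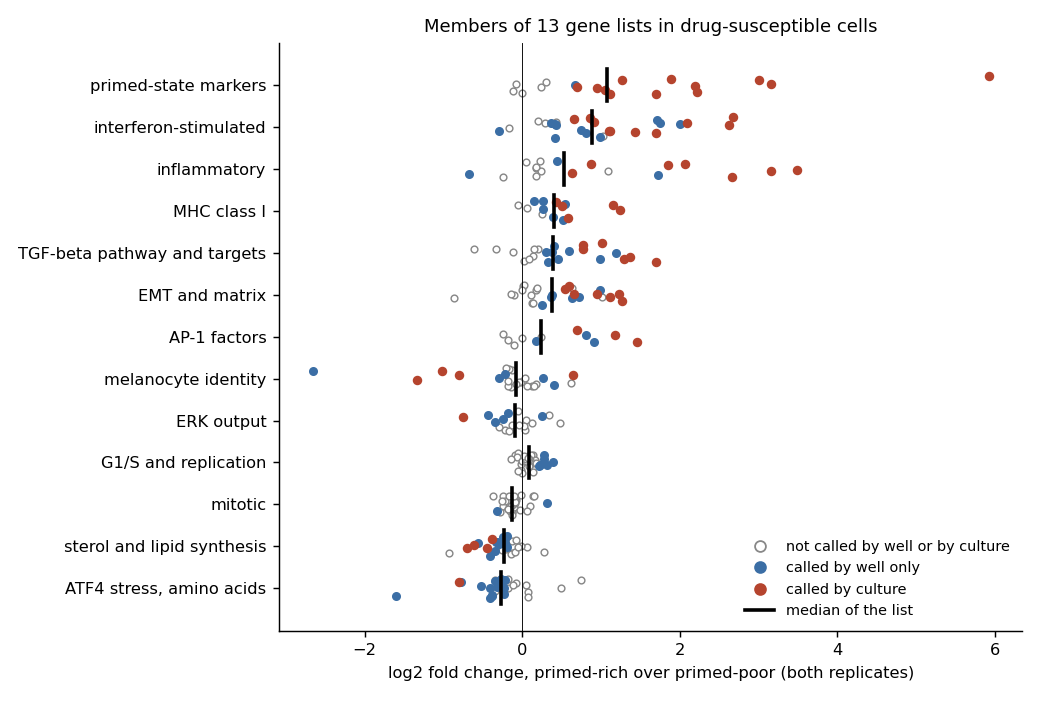
Log2 fold change, primed-rich over primed-poor, of the tested members of 13 gene lists in drug-susceptible cells, each point a gene and the bar the list's median. Open points were called by neither fit, blue points by well only, and red points by culture. The medians run from 1.08 for primed-state markers to -0.27 for the ATF4 stress and amino acid genes.

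The lists with most lower members were those of ATF4 and of sterol synthesis. ATF4 is the transcription factor of the integrated stress response and switches on amino acid synthesis and transport. Of 28 genes of this response 0 were higher and 15 lower by well, beside 7.5% and 7.66% of all genes. Their median log2 fold change was -0.27, but 1, TRIB3, was lower by culture, beside 0.697% of all genes. Cluster 10 held a lower share of the cells in the primed-rich wells, and its part in the values of this list was not tested. With that cluster left out, SLC7A11 was at -1.57 and TRIB3 at -0.62. SLC7A11, the cystine importer (chromosome 4, 138164097 to 138242349, minus strand), was at 6.74, 7.31, 8.13 and 6.97 CPM in wells 1, 2, 5 and 6 and at 15.3, 15.7, 34.7 and 33.1 CPM in wells 3, 4, 7 and 8. It was 3.03-fold lower without overlap, with log2 fold changes of -1.12 in r1 and -2.18 in r2 (interaction adjusted p = 6.07e-05), and was called by well (0.00118) but not by culture (0.125). TRIB3, a pseudokinase that feeds back on ATF4, was at 18.1 to 25.5 CPM against 29.9 to 48.9 CPM (-0.80 ± 0.07, adjusted p = 3.81e-06 by well and 0.00189 by culture). ATF4 itself had -0.41 ± 0.06 (0.000411 by well, 0.0541 by culture).

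Of 28 genes of sterol and lipid synthesis 0 were higher and 16 lower by well, beside 7.5% and 7.66% of all genes. Their median log2 fold change was -0.23, and 4 were lower by culture, beside 0.697% of all genes. Leaving out 1 well gave 10 lower genes without well 1 and 11 to 15 without any other. SQLE, squalene epoxidase, was at 129 and 124 CPM against 184 and 193 CPM in r1 and at 64.7 and 71.5 CPM against 107 and 107 CPM in r2. Its groups were apart within each replicate and overlapped across them (-0.61 ± 0.05, adjusted p = 3.26e-06 by well, 0.00358 by culture). HMGCS1, which makes HMG-CoA, was at 18.3 to 20.6 CPM against 26.2 to 37.9 CPM (-0.70 ± 0.09, 0.000377 and 0.0191).

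Among 25 melanocyte identity genes 6 were lower and 3 higher by well, beside 7.66% and 7.5% of all genes. By culture 3 were lower, BFSP2, GJB1 and RLBP1, and 1 higher, DCT, beside 0.697% and 1.24% of all genes. GJB1, connexin 32, was at 17.7, 19.9, 8.13 and 10.1 CPM in wells 1, 2, 5 and 6 against 36, 37.4, 19.0 and 20.7 CPM in wells 3, 4, 7 and 8, lower within each replicate (-1.01 ± 0.07, adjusted p = 9.09e-07 by well and 0.000567 by culture). BFSP2, a filament protein, had -1.34 ± 0.13 and RLBP1, a retinoid-binding protein, -0.81 ± 0.08 (0.000203 and 0.00353 by culture). DCT, a melanin enzyme that primed cells hold at 20.6 CPM in r1 and 11.8 CPM in r2, went the other way, with 561 and 619 CPM against 419 and 403 CPM in r1 and 1056 and 1016 CPM against 595 and 626 CPM in r2 (0.64 ± 0.06, 0.00477 by culture). PMEL and MLANA did not pass (adjusted p = 0.593 and 0.057). SEPT4, a septin, HPGD, which inactivates prostaglandins, and CPM, a membrane carboxypeptidase, were also lower in both fits (log2 fold changes -1.12, -0.89 and -0.88).

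Shares of the cell cycle phases overlapped between the groups over all 8 wells. The share of drug-susceptible cells in G1 was 25.03% ± 4.38 (SD, n = 4 wells) in primed-rich and 24.9% ± 5.80 in primed-poor wells (p = 1, exact permutation test within replicates, two-sided, 36 splits). S phase took 45.8% ± 6.399 against 44.7% ± 2.54 (exact p = 0.611), and G2/M 29.1% ± 3.39 against 30.4% ± 3.42 (exact p = 0.722), where 0.0556 is the smallest p that 4 with 4 wells allow. This test takes chip wells as separate. With the wells of a culture pooled, p was 0.5 for G1, 1 for S and 1 for G2/M (exact permutation over 4 splits), and 0.5 is the smallest that 2 with 2 cultures allow. Within replicates the G2/M shares were apart in opposite directions, at 33.5% and 29.4% against 26.4% and 28.7% in r1 and at 25.3% and 28.4% against 32.3% and 34.0% in r2, which the pooled means do not show. Of 34 genes of G1/S and replication 6 were higher and 0 lower by well, of 30 mitotic genes 1 was higher and 1 lower, and by culture 0 of either list was called. Among all genes 7.5% were higher and 7.66% lower by well. Without well 1, 10 mitotic genes were lower, and leaving out any other well gave 0 to 2. For G1/S and replication, leaving out 1 well gave 4 to 8 higher genes. Output genes of the ERK pathway, 18 in all, had 1 higher, CCND1, and 5 lower members by well, and EGR1 alone by culture (-0.75 ± 0.13, 0.0169). The lower count was 3 without well 5 or well 8.

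The makeup of the drug-susceptible cells differed in the authors' clusters. Cluster 4 held 22.2%, 27.5%, 18.1% and 15.7% of them in wells 1, 2, 5 and 6 and 12.1%, 11.7%, 9.12% and 10.6% in wells 3, 4, 7 and 8, and clusters were made from the genes compared here, so no test is given. Cluster 10 went the other way, with 1.03%, 2.50% and 1.49% in wells 1, 2 and 6 and 0 of 83 cells in well 5, against 8.68%, 6.205%, 2.58% and 2.80% in wells 3, 4, 7 and 8. The 0 of 83 allows a share of about 3.61%, taken as 3 cells of 83 and not as an exact binomial limit. Without cluster 10, the smallest cluster, 1 gene of the ATF4 list was higher and 13 lower by well. Of all 16124 genes tested in that fit, 1237 were higher and 1247 lower. The 8 largest rises among genes with at least 10 CPM on average were followed within clusters 0, 1, 3, 4 and 5. For 7 of these 8 genes the direction was the same in both replicates, and C1S was at -0.06 in cluster 1 of r2. Those genes were chosen for large rises in both replicates. Over all named genes called by well, 41 of 62 higher and 19 of 38 lower ones kept their direction in all 10 cluster and replicate values. Among the others, SERPINE2 was at -0.10, -0.29 and -0.03 in clusters 0, 1 and 5 of r2, EGFR at -0.22 in cluster 1 of r2 and IFIT1 at -0.94 in cluster 3 of r2. FN1 had log2 ratios of 0.96 to 2.18 in r1 and 1.58 to 3.07 in r2 across these clusters, RUNX1 of 1.58 to 2.33 and 0.92 to 1.52, and IRF9 of 1.80 to 2.70 and 1.67 to 2.68. The highest r2 values of FN1 and IRF9 came from cluster 3, which held 12 drug-susceptible cells of primed-rich wells in r2, and without it those ranges ended at 2.18 and 2.12. With cluster 4 left out, 902 genes were higher and 895 lower by well.

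Cells with a UMI of EGFR, AXL or NGFR were also left out. This took 431 cells (41.0%) from the primed-rich and 1265 (14.6%) from the primed-poor wells. The filter counts UMIs before thinning and so also depends on depth. An EGFR UMI was found in 37.0% of cells in primed-rich against 12.4% in primed-poor wells of r1, and in 34.6% against 10.9% in r2. After thinning these shares were 14.7% against 5.07% and 9.77% against 4.81%. EGFR and AXL were themselves higher in the primed-rich wells, so the filter is not independent of the comparison. The log2 fold change of FN1 was then 1.88 in place of 2.20, that of IGFBP7 2.60 in place of 3.10, that of RUNX1 1.71 in place of 1.67 and that of IRF9 2.43 in place of 2.62. Of the interferon list 13 of 26 members were then higher and 0 lower, and of all 15608 genes tested in that fit 781 were higher and 848 lower.

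**Figure D5:**
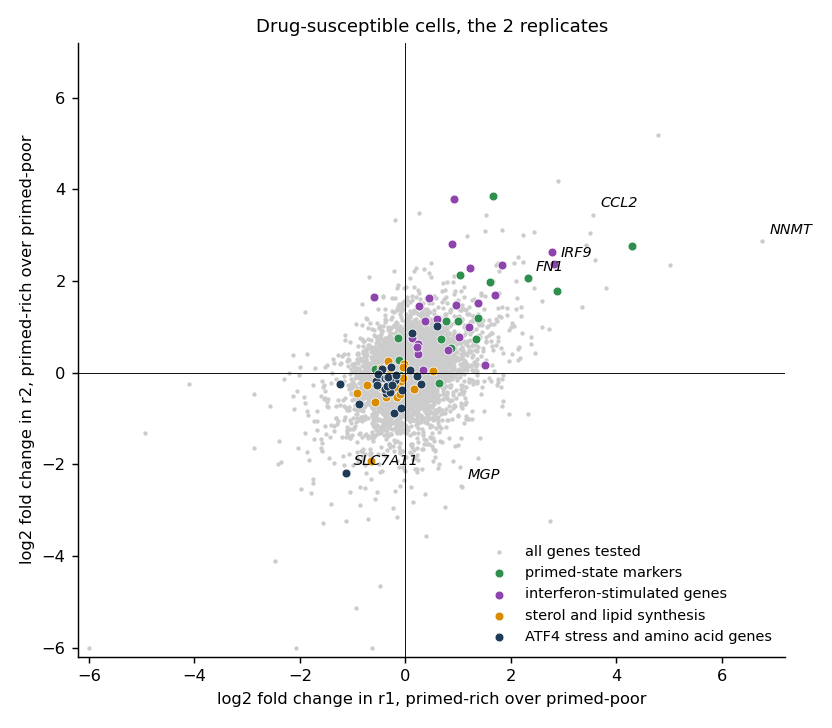
Log2 fold change, primed-rich over primed-poor, of each gene tested in drug-susceptible cells of r1 (x) and r2 (y), with 4 gene lists in colour and values past the axis ends drawn at the edge. Most interferon-stimulated genes and primed-state markers lie in the upper right, SLC7A11 in the lower left, and MGP in the lower right with 1.05 in r1 and -2.47 in r2.

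Replicates differed in part of the response. The interaction of replicate and group was called for 1456 genes, and 1046 of them had opposite signs in r1 and r2. Among genes the study follows, MGP, a matrix inhibitor of calcification, was at 43.6 and 39.0 CPM against 17.6 and 22.3 CPM in r1 and at 4.02 and 2.61 CPM against 16.6 and 19.1 CPM in r2 (interaction adjusted p = 0.000124). NFATC2, a calcium-regulated factor, was higher in both primed-rich wells of r1 and lower in both of r2 (0.48 and -0.21, interaction adjusted p = 0.000281). Neither was called over both replicates.

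Of the markers of other cell types, CD3D, MS4A1, TYROBP, CLDN5 and KRT5 were at 0 in every well, and others were not. The summed level of the leukocyte markers was 26.5 to 74.5 CPM in primed-rich and 34.0 to 74.1 CPM in primed-poor wells, that of the endothelial markers 0.633 to 1.34 and 0.718 to 0.802 CPM, and that of the epithelial markers 70.8 to 80.0 and 76.9 to 90.6 CPM. Of 14 leukocyte markers 3 were tested and 1, FCER1G, was lower, of 8 endothelial markers 3 were tested and 0 called, and of 8 epithelial markers 4 were tested and 2, KRT18 and CDH1, were lower by well. By culture KRT18 and CDH1 were not called (adjusted p = 0.311 and 0.0768), and by well neither was without well 2, 3 or 4. Of 8 fibroblast markers 6 were tested, and COL1A1, PDGFRA and FAP were higher and LUM was lower by well, of which PDGFRA alone was called by culture (adjusted p = 0.0492). COL1A1, PDGFRA and FAP are also among the 84 primed-state genes above. COL1A1 had log2 fold changes of -0.0089 in r1 and 1.51 in r2. Among all genes 7.5% were higher and 7.66% lower by well. The fibroblast list had a summed level of 33.9 to 50.3 CPM in primed-rich and 43.8 to 51.0 CPM in primed-poor wells.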

How the data were processed

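The values deposited by the authors are counts of UMIs for each cell, from 10x single-cell libraries aligned to hg38 with Cell Ranger (its version is not given in the sources used here), with cell metadata that hold well, replicate, cluster, phase and the percent of mitochondrial UMIs. Per the methods they had filtered cells in Seurat on genes and mitochondrial percent, also against likely doublets. No doublet caller was run, and whether doublets remained among the drug-susceptible cells was not tested. Of the cell barcodes, 19 occurred in 2 wells, which touched 27 drug-susceptible cells. The wells, gene lists and tests were chosen with earlier results of these data known.

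Counts of the 33538 genes were summed per well over cells not labelled primed and tested with edgeR 4.0.16 (R 4.3.3, filterByExpr, TMM, quasi-likelihood F test, replicate as block), with Benjamini-Hochberg adjustment at 0.05. The fit by culture used sums of both chip wells. Wells of the same replicate deviated together (r 0.759 to 0.969 over genes). CPM per well are TMM-scaled. Where nothing says that samples are separate cultures, p-values measure only the spread between them. Genes named were those the study follows, the 8 largest rises and 8 largest falls among genes called by well with a mean of at least 10 CPM and both primed-rich wells on the same side of the primed-poor wells in each replicate, 6 and 6 more among genes with a primed level between 0.5 and 2 times the drug-susceptible one, and up to 4 per list by smallest p. Others, named for comparison, were chosen after their values were seen. DESeq2 1.42.0, other filters, cell subsets and leaving out each well were alternatives. Scripts were tested on simulated data. Cells were thinned with numpy 2.4.6. Intervals are exact binomial and cover counting error only. Promoters came from RefSeq GRCh38.p14 and gene positions from GENCODE.
Some genes are not reported here.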

Additional observations from a re-analysis of the deposited data

Results flagged for a closer look

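In 5 of the 238 groups of 4 wells examined, 119 named genes in each of 2 groups, 1 well lay far from the others. For 4 values that do not depend on each other chance marks about 1 group in 20, but wells of a culture are alike and wells of r1 and r2 differ, so that rate does not hold here. SERPINE2 was at 365 CPM in primed-rich well 5, RUNX1 at 52.8 CPM in primed-rich well 1, TSPAN9 at 23.4 CPM in primed-rich well 2, JUN at 9.14 CPM in primed-rich well 1 and IFIT1 at 5.44 CPM in primed-poor well 8.

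For 4 named genes the fitted change had opposite signs in the replicates, each with an interaction of replicate and group past the threshold in edgeR. NFATC2 had log2 fold changes, primed-rich over primed-poor, of 0.48 in r1 and -0.21 in r2 (interaction adjusted p = 0.000281). MGP had 1.05 and -2.47 (0.000124). TGFB1 had 0.30 and -0.13 (0.0396). STC1, a secreted stanniocalcin, had -0.026 and 1.85 (5.27e-05), where the r1 value is near 0 and its sign turned without scaling for composition (1.77 CPM in primed-rich and 1.61 CPM in primed-poor wells).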

How the results depend on the processing

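By well, 1217 genes were higher and 1243 lower in primed-rich wells. Without the replicate block these were 52 and 10, with cultures summed 216 and 121, with 83 cells per well 373 and 340, in S cells 683 and 710, in G2M cells 663 and 521, without cells with a UMI of EGFR, AXL or NGFR 781 higher, and without a filter on low counts 2086 lower. Leaving out each well gave 858 to 1076 higher and 806 to 1165 lower genes, with the lowest of both without well 4. By culture, 216 higher and 121 lower became 0 and 0 without the replicate block (edgeR, with 249 genes at an unadjusted p under 0.05, and 277 calls by DESeq2 with the block), 466 and 319 in G1 cells and 122 and 42 in G2M cells. The median level of the primed-state genes, averaged over the primed-poor wells, was 2.48% of the primed level, and 1.73% without the cells highest in primed markers. In the primed-rich wells 1, 2, 5 and 6 the medians also fell. They were 2.39%, 3.06%, 4.52% and 3.91%, and 2.03%, 2.54%, 3.21% and 3.57% without those cells. Of 3542 alternative values of 119 named genes 617, all of called genes, lost the call with the same direction, 53 gained one, 7 changed sign with a call in either fit, and 26 of genes not called in either fit changed sign by more than the standard error. The 7 were these. NFATC2 was at -0.21 with only r2, MGP at 1.05 with only r1, CTGF at -0.15 in S cells and -0.16 in cultures of S cells, and HSPA1A at 0.031 with equal cells, 0.11 in S cells and 0.10 in cultures of S cells. The causes were not tested. Fits within 1 replicate, within phases by culture and without cluster 4, and phase shares by culture, were chosen after seeing the data. Low cell numbers (83 in well 5) limit rare genes.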
